A study of Rattus norvegicus with 25 samples.

Results

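The cluster of miR-183, miR-96 and miR-182 was described in rat sperm small RNA (smRNA). Its members were chosen by name, as every row of the deposited miRNA matrix that is a mature arm of Mir183, Mir96 or Mir182. The rule found 4 of 562 rows, namely rno-miR-183-5p, rno-miR-96-5p, rno-miR-182 and rno-miR-183-3p. Of these, 3 passed the filter on low counts, beside 317 miRNAs that passed in all.

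Libraries came from mature sperm of F0 male rats that had self-administered either morphine or saline, and each library was labelled as a separate biological replicate. The 7 F0_SAL (saline) and 7 F0_MOR (morphine) males were non-abstinent at collection. The 5 F0_ABS-SAL and 6 F0_ABS-MOR males were collected after 90 days of abstinence from the same 2 self-administration conditions, so they were also older. Sperm of all groups were taken from the cauda epididymis and purified by a double swim-up. Timepoint, age and any preparation or sequencing batch that went with it cannot be told apart in this design. The matrix columns are named by letters and by REG or TO, which the sources used here do not expand, and they were matched to the non-abstinent and abstinent groups by drug name and group size, so every timepoint direction below rests on that match.

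The cluster is a set of 3 miRNA genes that lie close together and are transcribed as one primary transcript, from which each hairpin is cut and processed to a mature miRNA. It is best known from sensory organs, where it is abundant in photoreceptors and inner ear hair cells, and changes in the seed of miR-96 cause hearing loss. In other tissues it is found in epithelia, and its members repress targets such as the transcription factor FOXO1. An miRNA finds its targets mainly through its seed, bases 2 to 8 from the 5′ end, so the mature sequences are shown first with the seed in capitals, because they show how alike the members are (RefSeq, assembly GRCr8, minus strand).
rno-miR-183-5p: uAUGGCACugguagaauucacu
rno-miR-96-5p: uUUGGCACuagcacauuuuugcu
rno-miR-182: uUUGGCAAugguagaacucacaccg

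These lie at chr4:59756106-59756127 (rno-miR-183-5p), chr4:59755901-59755923 (rno-miR-96-5p) and chr4:59752249-59752273 (rno-miR-182). All 4 member names were found in the RefSeq table. The hairpins of Mir96 and Mir183 are 97 bases apart and those of Mir182 and Mir96 are 3533 bases apart. The span of 3908 bases, chr4:59752246-59756153, overlaps 0 protein-coding genes and lies between Nrf1, 14079 bases away, and Ube2h, 45948 bases away. A further miRNA gene, Mir3553, is annotated on the opposite strand across Mir183, and its miRNA was not analysed here.

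The seeds of rno-miR-96-5p and rno-miR-182 are alike at bases 2 to 7 and differ by C8A (rno-miR-96-5p to rno-miR-182, counted from the 5′ end). That of rno-miR-183-5p differs from rno-miR-96-5p by A2U and from rno-miR-182 by A2U and C8A. Among the 520 miRNAs of the matrix that the RefSeq table held, no miRNA outside the cluster shared bases 2 to 7 with any of the 3. Over the whole mature sequence the order of likeness was different. Without gaps, rno-miR-183-5p and rno-miR-182 were identical at 18 of 22 positions (81.8%), rno-miR-183-5p and rno-miR-96-5p at 13 of 22 (59.1%), and rno-miR-96-5p and rno-miR-182 at 12 of 23 (52.2%).

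The second arm of Mir183 was shown here for its near absence.
rno-miR-183-3p: uGAAUUACcgaagggccauaa
It had 2 reads in 1 of 25 libraries, an F0_ABS-MOR library in which rno-miR-183-5p had 695 reads, and was listed at 0 in the other libraries. The smallest count above 0 in the matrix was 2, so a listed 0 may also stand for a single read. Over all libraries rno-miR-183-5p had 12414 reads. The 3-prime arm of Mir96 was not analysed here. No fold change was computed for rno-miR-183-3p.

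Levels are given as CPM, the count as a part of all miRNA counts on a common library size, scaled between libraries by the trimmed mean of M-values (TMM). Total miRNA counts per library ran from 1032386 to 3203211, with group medians of 1701012 (F0_SAL), 1428308 (F0_MOR), 2334377 (F0_ABS-SAL) and 2134169 (F0_ABS-MOR), and the sperm-enriched rno-miR-34c-5p took between 19.6% and 53.6% of them. Raw counts of the members ran from 547 to 2266 for rno-miR-182, from 184 to 886 for rno-miR-183-5p and from 13 to 214 for rno-miR-96-5p. Counting error alone is 27.7% of a count of 13 and 13.4% of the median count of rno-miR-96-5p, against 4.95% at the median count of rno-miR-183-5p and 3.22% at that of rno-miR-182. Single libraries are therefore less certain for rno-miR-96-5p. In such bulk libraries fewer cells of a type and less RNA per cell cannot be told apart.

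rno-miR-182 was the most abundant member in every group. Its mean level was 590 CPM over the 25 libraries, which placed it at rank 80 of the 317 miRNAs tested. rno-miR-183-5p followed at 258 CPM (rank 107) and rno-miR-96-5p at 44.7 CPM (rank 185). Divided by mature length the order of these mean levels was the same, with 23.6, 11.7 and 1.94 CPM per nucleotide. By comparison rno-miR-186-5p, the miRNA the study used to normalize its qPCR, was at 363 CPM.

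In F0_SAL sperm rno-miR-96-5p had a lowest level of 15.2, a median of 27.1 and a highest of 30.6 CPM. In F0_MOR sperm the lowest, median and highest were 9.41, 32.6 and 43.9 CPM. In F0_ABS-SAL sperm the 5 libraries were at 51.8, 53.7, 55.5, 60.8 and 107 CPM. In sum every F0_ABS-SAL library lay above every non-abstinent library of either treatment, and 1 of them stood well above the other 4. For 4.73% of all miRNAs tested every F0_ABS-SAL library lay above every F0_SAL library. The share that lay above both non-abstinent groups was not computed. In F0_ABS-MOR sperm the lowest, median and highest were 40.3, 62.5 and 87.7 CPM, so that 5 of 6 libraries lay above all 7 F0_MOR libraries. For 1.89% of all miRNAs tested all 6 did, which rno-miR-96-5p did not reach. The share with at least 5 of 6 was not computed.

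The group means of rno-miR-96-5p were in the order F0_SAL (25.2 CPM ± 5.79, SD, n = 7), F0_MOR (32.7 ± 12.1, n = 7), F0_ABS-MOR (63.8 ± 17.5, n = 6) and F0_ABS-SAL (65.8 ± 23.4, n = 5). The gap in this order lay between the non-abstinent and the abstinent groups. The neighbouring pairs F0_SAL and F0_MOR, and F0_ABS-MOR and F0_ABS-SAL, overlapped. The latter differed by less than their spread. The means of F0_SAL and F0_MOR lay further apart than the SD of F0_SAL, but within that of F0_MOR. Of the 7 F0_MOR libraries, 5 lay above every F0_SAL library, and 38 of 49 pairs of libraries were higher in F0_MOR. The share of all miRNAs with such counts was not computed, and with all libraries kept the difference passed no test given below.

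In F0_SAL sperm rno-miR-182 ran from 305 to 744 CPM with a median of 422. In F0_MOR sperm it ran from 282 to 780 CPM with a median of 571. The 5 F0_ABS-SAL libraries were at 563, 637, 662, 682 and 1036 CPM, with the same library highest as for rno-miR-96-5p. Those values lay inside the range of the other groups except for the highest, which was the highest of all 25. In F0_ABS-MOR sperm rno-miR-182 ran from 354 to 880 CPM with a median of 709. Means rose in the order F0_SAL (461 CPM ± 142.1), F0_MOR (552 ± 177), F0_ABS-MOR (679 ± 202) and F0_ABS-SAL (716 ± 184), and all neighbouring groups overlapped and lay within their spread of each other.

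In F0_SAL sperm rno-miR-183-5p ran from 162 to 369 CPM with a median of 179, and in F0_MOR sperm from 123 to 309 CPM with a median of 241. The 5 F0_ABS-SAL libraries were at 231, 275, 291, 310 and 422 CPM, again with the same library highest. In F0_ABS-MOR sperm the range was 164 to 389 CPM with a median of 303. Mean levels of rno-miR-183-5p were 225 CPM ± 86.1 (F0_SAL), 226 ± 79.6 (F0_MOR), 293 ± 77.7 (F0_ABS-MOR) and 306 ± 71.2 (F0_ABS-SAL), and all groups overlapped.

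**Figure D1:**
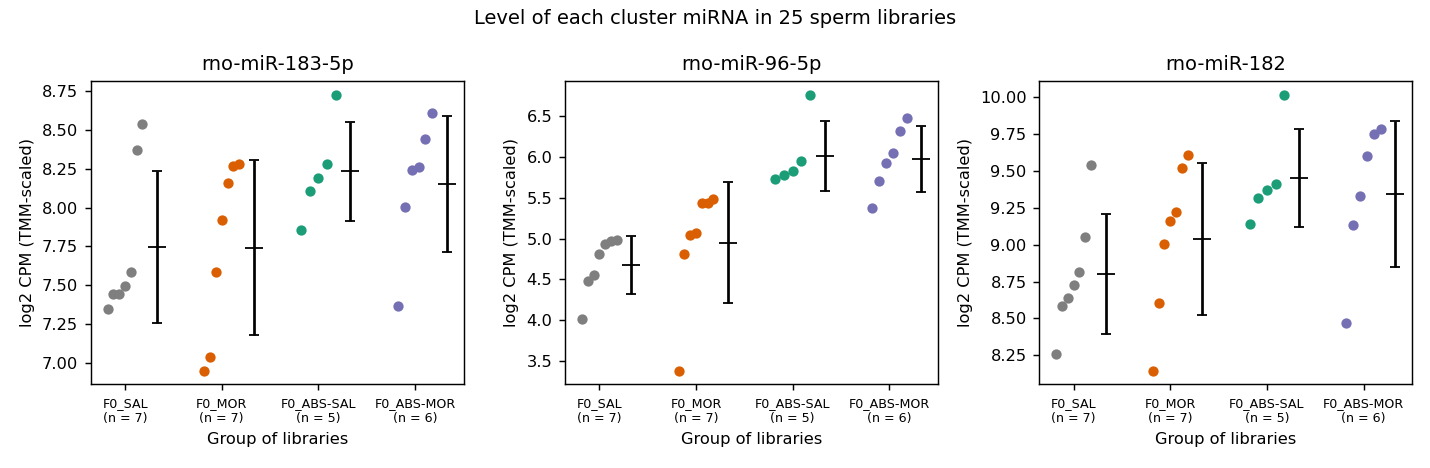
Level of rno-miR-183-5p, rno-miR-96-5p and rno-miR-182 as log2 CPM (TMM-scaled, vertical axis, which does not start at 0 and differs between panels) in F0_SAL, F0_MOR, F0_ABS-SAL and F0_ABS-MOR libraries. Each point is 1 library, sorted within its group, and the black mark and bar are the group mean ± SD. rno-miR-96-5p in the 5 F0_ABS-SAL libraries sits above all F0_SAL and F0_MOR libraries, while the other 2 miRNAs overlap between all groups. The share of all miRNAs tested that sits above both groups was not computed.

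The first question of the design was whether morphine changed sperm smRNA at either timepoint. It was tested for all miRNAs together with edgeR's quasi-likelihood test, and an miRNA was called where the adjusted p was under 0.1 and the log2 fold change was beyond 0.58 in either direction. No member was called between F0_MOR and F0_SAL or between F0_ABS-MOR and F0_ABS-SAL, where edgeR called 0% of all miRNAs tested as well. DESeq2 also called 0 here, and limma-voom called 1 miRNA between F0_MOR and F0_SAL. The study itself reported rno-miR-150-5p as differentially expressed in that comparison by DESeq2, with a qPCR difference of similar size. Here its log2 fold change was 0.92 (edgeR adjusted p = 0.31), so it was not called. At an unadjusted p under 0.05, edgeR counted 23 and DESeq2 30 miRNAs in the first comparison, and 4 and 5 in the second.

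Between F0_MOR and F0_SAL the log2 fold change was 0.38 (SE 0.26, edgeR adjusted p = 0.730) for rno-miR-96-5p, 0.26 (SE 0.23, adjusted p = 0.771) for rno-miR-182 and 0.0082 (SE 0.24, adjusted p = 0.979) for rno-miR-183-5p. Their 95% intervals were -0.16 to 0.92, -0.20 to 0.72 and -0.48 to 0.50, so these libraries leave room for a change of up to 1.89-fold in rno-miR-96-5p. The direction of rno-miR-183-5p turned under several other scalings and is not given as one.

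Between F0_ABS-MOR and F0_ABS-SAL the log2 fold changes were close to 0, at -0.075 for rno-miR-182, -0.058 for rno-miR-183-5p and -0.045 for rno-miR-96-5p (edgeR adjusted p = 1.00 for each). The 95% intervals were -0.60 to 0.45, -0.61 to 0.49 and -0.62 to 0.53. The direction of all 3 turned under another scaling. Averaged over both timepoints, morphine against saline gave log2 fold changes of 0.17 (rno-miR-96-5p), 0.092 (rno-miR-182) and -0.025 (rno-miR-183-5p), with an edgeR adjusted p of at least 0.966.

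Sperm of abstinent and non-abstinent males of the same treatment were compared next. In saline males 2 of the 3 tested members were called, both higher in F0_ABS-SAL than in F0_SAL, where 33.1% of all miRNAs tested were called, 22.4% higher and 10.7% lower. rno-miR-96-5p was 2.61-fold higher, a log2 fold change of 1.39 (SE 0.28, 95% interval 0.82 to 1.95, edgeR adjusted p = 8.87e-04), and was placed 8th of 317 by p and 21st by fold change. rno-miR-182 was 1.55-fold higher, a log2 fold change of 0.63 (SE 0.25, 95% interval 0.13 to 1.14, adjusted p = 0.0529). rno-miR-183-5p did not pass the test, with a log2 fold change of 0.44 (95% interval -0.089 to 0.97, edgeR adjusted p = 0.185).

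The call of rno-miR-182 in saline males lay near the fold threshold. It was lost when F0_ABS-SAL library R was left out (log2 fold change 0.44, edgeR adjusted p = 0.227), when F0_SAL library P (0.56, adjusted p = 0.07704) or W (0.52, adjusted p = 0.116) was left out, and when libraries were scaled to rno-miR-186-5p (0.39, adjusted p = 0.348). The call of rno-miR-96-5p was kept in each of those settings, at a log2 fold change of 1.11 without library R and 1.20 with the scaling to rno-miR-186-5p.

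In morphine males 1 of the 3 tested members was called, higher in F0_ABS-MOR than in F0_MOR, where 21.1% of all miRNAs tested were called, 11% higher and 10.1% lower. This was again rno-miR-96-5p, 1.95-fold higher with a log2 fold change of 0.96 (SE 0.27, 95% interval 0.42 to 1.51, edgeR adjusted p = 0.0141), 23rd of 317 by p. The log2 fold changes of rno-miR-183-5p (0.37, 95% interval -0.13 to 0.88, edgeR adjusted p = 0.296) and rno-miR-182 (0.30, 95% interval -0.18 to 0.78, adjusted p = 0.396) did not pass the test. Members called in the 2 timepoint comparisons were read against different controls, and each comparison stands on its own libraries.

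**Figure D2:**
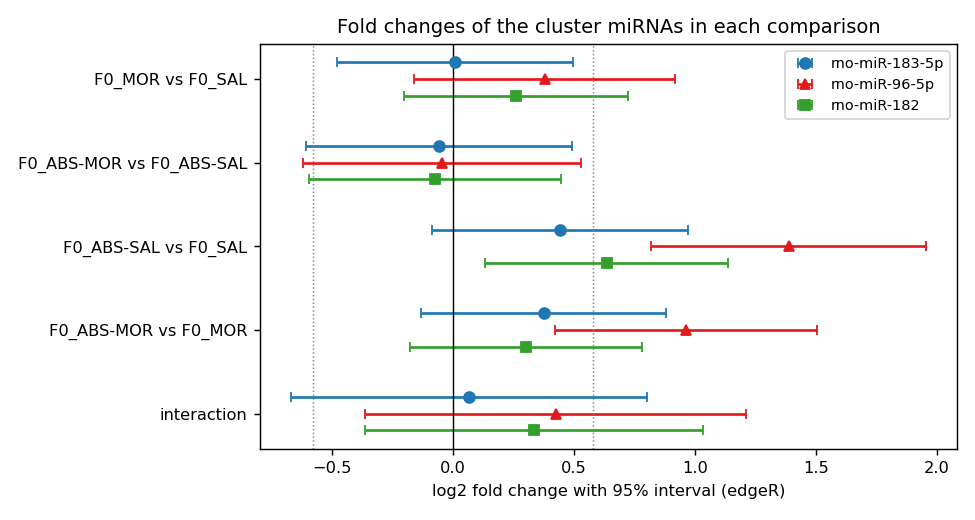
log2 fold change of each member with its 95% interval from edgeR (horizontal axis) in the 4 pairwise comparisons and the interaction (vertical axis), with dotted lines at the fold threshold of 0.58 in either direction. Both intervals of rno-miR-96-5p in the timepoint comparisons lie above 0, at 0.82 to 1.95 and 0.42 to 1.51, while all intervals of the 2 treatment comparisons and of the interaction span 0.

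Whether the timepoint difference depended on treatment was tested as an interaction, the timepoint log2 fold change in saline males minus that in morphine males. It was 0.42 (SE 0.39) for rno-miR-96-5p, 0.33 (SE 0.34) for rno-miR-182 and 0.067 (SE 0.36) for rno-miR-183-5p, with edgeR adjusted p-values of 0.953, 0.953 and 0.968. The 95% interval for rno-miR-96-5p was -0.36 to 1.21, so the saline and morphine males were not shown to differ in it. The 95% interval for rno-miR-182 was -0.36 to 1.03, so its call in saline males and lack of one in morphine males was not shown to be a difference between treatments, and an interaction of up to 2.05-fold lies within the interval. Of all miRNAs tested, 0% were called for the interaction. At an unadjusted p under 0.05, edgeR counted 10 and DESeq2 11 miRNAs for it.

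Averaged over both treatments, 1 of 3 tested members was called by timepoint, where 34.7% of all miRNAs tested were called, 22.7% higher and 12% lower. rno-miR-96-5p was 2.26-fold higher in abstinent males (log2 fold change 1.17, SE 0.19, edgeR adjusted p = 3.36e-05). rno-miR-182 (0.47, SE 0.17, adjusted p = 0.0262 in edgeR) and rno-miR-183-5p (0.41, SE 0.18, adjusted p = 0.0623) were past the p threshold and under the fold threshold, so neither was called.

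The same differences were tested on the log2 CPM of single libraries with two-sided exact permutation tests, 12 in all (3 members in 4 comparisons), adjusted over the 12. For rno-miR-96-5p the mean log2 CPM was 6.01 ± 0.43 (SD, n = 5) in F0_ABS-SAL and 4.68 ± 0.35 (n = 7) in F0_SAL, a difference of 1.33 (exact permutation p = 0.00126, adjusted p = 0.0152), which is the smallest p that 5 against 7 libraries can give. These groups did not overlap, and 4.73% of all miRNAs tested had every F0_ABS-SAL library above every F0_SAL library. In morphine males the difference was 1.02 (exact permutation p = 0.00583, adjusted p = 0.0350), with 39 of 42 pairs of libraries higher in F0_ABS-MOR. rno-miR-182 in saline males differed by 0.65 (exact permutation p = 0.0177, adjusted p = 0.0707), and leaving out single libraries lost that call in 9 of 12 cases. The other 9 differences, all 4 of rno-miR-183-5p among them, had an adjusted p of at least 0.250. With total counts in place of TMM, rno-miR-183-5p in saline males passed (0.86, exact permutation adjusted p = 0.072). Of the 9, 2 passed when 1 library was left out. Without F0_MOR library G, which had the lowest rno-miR-96-5p level, rno-miR-96-5p was higher in F0_MOR than in F0_SAL by 0.53 in place of 0.27 (exact permutation, adjusted p = 0.0513), and without F0_SAL library H rno-miR-183-5p was higher in F0_ABS-SAL by 0.62 in place of 0.49 (adjusted p = 0.0649 by the exact test).

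Members of one primary transcript can still differ in their mature levels, and the ratio of 2 members within a library is free of any scaling between libraries. Ratios were taken from counts with 0.5 added, on a log2 scale, and compared with two-sided exact permutation tests, again 12, adjusted over the 12. For every 100 reads of rno-miR-183-5p there was a median of 13.1 reads of rno-miR-96-5p in F0_SAL (range 8.32 to 17.0) and 14.9 in F0_MOR (4.05 to 25.2). After abstinence the medians were 22.2 in F0_ABS-SAL (16.8 to 25.5) and 23.0 in F0_ABS-MOR (17.0 to 25.9). Thus rno-miR-96-5p took a larger part of the cluster's reads in abstinent libraries, 5.98% ± 0.684 (SD, n = 5) in F0_ABS-SAL against 3.70% ± 1.00 (n = 7) in F0_SAL, and 6.25% ± 0.933 (n = 6) in F0_ABS-MOR against 4.34% ± 1.84 (n = 7) in F0_MOR.

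In saline males the log2 ratio of rno-miR-96-5p to rno-miR-183-5p was higher by 0.86 in F0_ABS-SAL (exact permutation p = 0.00505, adjusted p = 0.0455), with 34 of 35 pairs of libraries in that direction. Its ratio to rno-miR-182 was higher by 0.70 (exact permutation p = 0.00758, adjusted p = 0.0455), and these groups did not overlap. In saline males the rise of rno-miR-96-5p was thus larger than that of either other member by a test of the difference itself. In morphine males the corresponding differences were 0.63 (exact permutation p = 0.111, adjusted p = 0.266) and 0.73 (p = 0.0472, adjusted p = 0.185), and neither passed after adjustment. With single libraries left out, the first ran from 0.33 to 0.77 (adjusted p 0.117 to 0.407 by the exact test) and the second from 0.44 to 0.86 (adjusted p 0.0866 to 0.311), both lowest without F0_MOR library G. The second passed in 1 of 13 cases, without F0_MOR library A.

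The ratio of rno-miR-182 to rno-miR-183-5p differed less. Group medians were 2.13 (F0_SAL), 2.37 (F0_MOR), 2.41 (F0_ABS-SAL) and 2.21 (F0_ABS-MOR). None of its 4 comparisons passed after adjustment by the exact permutation test. The largest difference was between F0_MOR and F0_SAL, at 0.24 on the log2 scale (exact permutation p = 0.0618, adjusted p = 0.185), and it passed without F0_MOR library T (0.30, adjusted p = 0.0839 by the exact test).

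**Figure D3:**
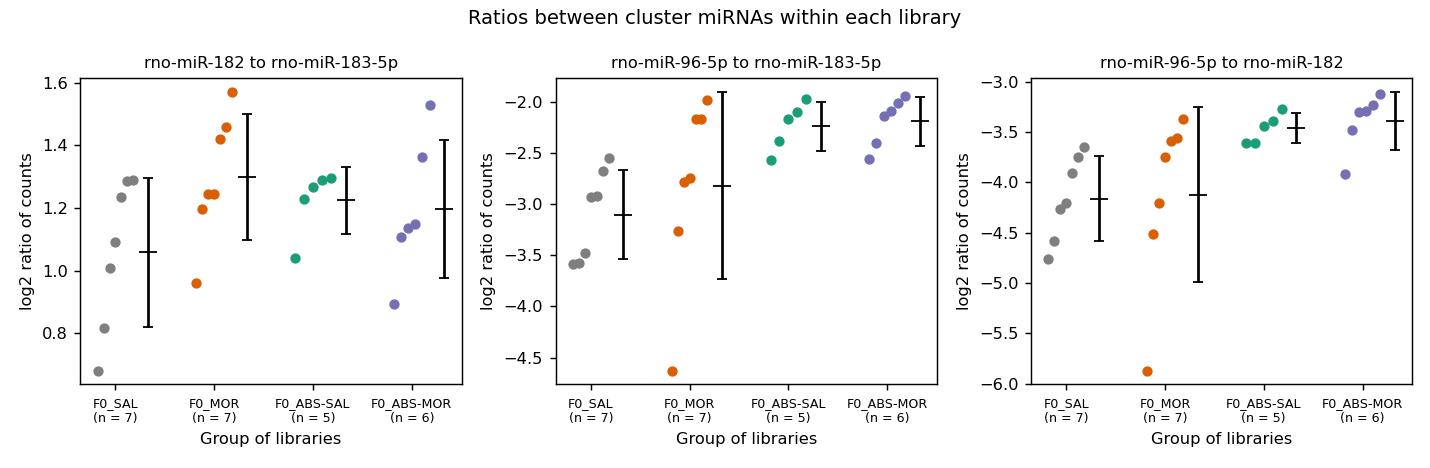
log2 ratio of the counts of 2 members within a library (vertical axis, which differs between panels) by group, with 1 point per library and the group mean ± SD in black. Both ratios of rno-miR-96-5p are higher in F0_ABS-SAL than in F0_SAL libraries, by 0.86 and 0.70, and 1 F0_MOR library lies far below its group in both.

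Libraries were next compared within groups, after the group mean of each log2 CPM had been taken out. Over the 25 libraries rno-miR-183-5p and rno-miR-182 moved together, with Pearson's r of 0.90 and Spearman's rho of 0.89, and lay on the same side of their group means in 22 libraries. rno-miR-96-5p followed them less closely, with r of 0.38 (rho 0.50) to rno-miR-183-5p and 0.41 (rho 0.53) to rno-miR-182. The points share library, depth and scaling, and counting error is larger for rno-miR-96-5p, so these values are a description. Leaving out the 2 libraries farthest from their group mean in rno-miR-183-5p gave r of 0.87 to rno-miR-182 and 0.36 to rno-miR-96-5p. Leaving out the 2 farthest in rno-miR-96-5p gave r of 0.58 between it and rno-miR-182. The pair of rno-miR-183-5p and rno-miR-96-5p was not recomputed without F0_MOR library G, the lowest in rno-miR-96-5p.

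**Figure D4:**
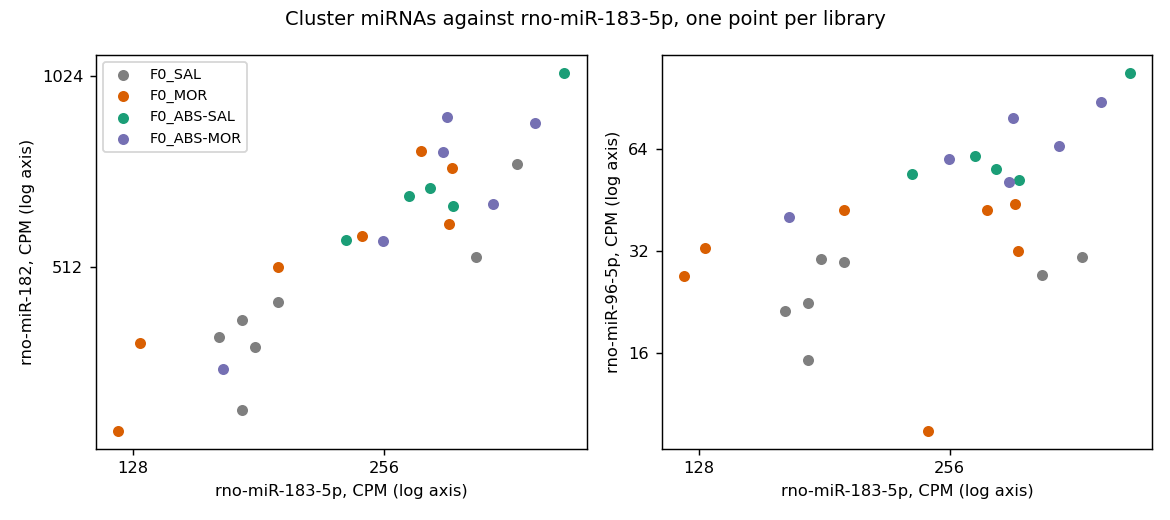
Level of rno-miR-182 (left) and rno-miR-96-5p (right) against rno-miR-183-5p in CPM, with logarithmic axes and 1 point per library coloured by group. Libraries fall along one line for rno-miR-182, whereas for rno-miR-96-5p the abstinent libraries lie above most non-abstinent ones at the same level of rno-miR-183-5p, and 1 F0_MOR library lies at 9.41 CPM.

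The 5 miRNAs whose within-group variation was most like that of the summed cluster, of 314 others tested, were rno-miR-10a-5p (Spearman's rho 0.83 over 25 libraries), rno-miR-181a-5p (0.80), rno-miR-205 (0.75), rno-miR-200b-5p (0.75) and rno-miR-10b-5p (0.74). The median over all 314 was 0.036, and their 5th and 95th percentiles were -0.50 and 0.59. By group mean rno-miR-96-5p made up only 3.70% to 6.25% of the cluster's reads. The likeness is therefore mainly to rno-miR-182 and rno-miR-183-5p, and it was not computed for rno-miR-96-5p alone. rno-miR-205 and rno-miR-200b-5p are known as epithelial miRNAs. By timepoint, rno-miR-205 (log2 fold change 1.73 in saline and 0.80 in morphine males) and rno-miR-200b-5p (0.88 and 0.82) were called higher in both arms by edgeR, rno-miR-10a-5p (0.76 and 0.32) in saline males alone, and rno-miR-181a-5p (0.49 and 0.29) and rno-miR-10b-5p (0.51 and 0.20) in neither.

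The miR-200 family (miR-200a, miR-200b, miR-200c, miR-141 and miR-429) holds epithelial cells in their differentiated state and was taken as the list of related miRNAs. Of its 9 rows, 7 were tested. In saline males 5 (71.4%, against 22.4% of all miRNAs tested) were called higher and 0 lower in F0_ABS-SAL, with a median log2 fold change of 0.66 against 0.0018 over all miRNAs tested. In morphine males 3 (42.9%, against 11%) were called higher and 0 lower in F0_ABS-MOR, with a median of 0.53 against 0.0015. rno-miR-200a-5p had the largest log2 fold changes of the family, 1.56 (edgeR adjusted p = 3.53e-04) and 1.73 (adjusted p = 9.69e-05), whereas rno-miR-200c-3p was at -0.15 (adjusted p = 0.568) and -0.10 (adjusted p = 0.751). In the treatment comparisons 0 of the 7 were called.

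Markers of other cells moved with the timepoint too. Of the 9 tested miRNAs of the epithelium list (the miR-200 family with miR-205 and miR-203a), 6 (66.7%, against 22.4% of all miRNAs tested) were called higher in F0_ABS-SAL and 4 (44.4%, against 11%) in F0_ABS-MOR, and 0 lower. These counts hold the 5 and 3 miR-200 calls given above, and rno-miR-205 is the only addition. rno-miR-203a-3p was lower without a call, at a log2 fold change of -0.31 (edgeR adjusted p = 0.157) in saline and -0.30 (adjusted p = 0.188) in morphine males. Summed without scaling, the list took 0.577% to 1.12% of the miRNA counts of a library in F0_SAL, 0.762% to 1.21% in F0_MOR, 1.14% to 2.06% in F0_ABS-SAL and 0.912% to 2.19% in F0_ABS-MOR. The F0_ABS-SAL library highest in all 3 members, library R, was also highest of its group in this share (2.06%), and the F0_ABS-MOR library lowest in all 3 members, library S, was lowest of its group (0.912%). In F0_SAL library H was highest in all 3 members and in this share (1.12%). Other F0_ABS-SAL libraries did not all follow this. Library E was lowest of that group in rno-miR-96-5p (51.8 CPM), at a share of 1.49%. Library L had the lowest share (1.14%), with rno-miR-182 at 682 CPM, above the group median of 662 CPM. F0_MOR libraries did not follow it either. Library B had the highest share (1.21%) with rno-miR-183-5p at 191 CPM, under the group median of 241 CPM. Library A, lowest in rno-miR-182 and rno-miR-183-5p, was at 0.957%, above the lowest share of 0.762%. No miRNA of the list was at 0 throughout. Whether epithelial RNA had a part in the rise of rno-miR-96-5p was not tested.

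The smooth and striated muscle list (miR-1, miR-133a, miR-133b, miR-143 and miR-145) had 4 of 6 tested miRNAs (66.7%, against 22.4% of all miRNAs tested) called higher in F0_ABS-SAL and 2 (33.3%, against 11%) in F0_ABS-MOR. It took 1.08% to 1.62% of counts in F0_SAL, 1.27% to 1.64% in F0_MOR, 1.98% to 8.42% in F0_ABS-SAL and 1.82% to 4.61% in F0_ABS-MOR, and the highest share was again that of library R. Its striated muscle members had 422 (rno-miR-1-3p), 350 (rno-miR-133a-3p), 11 (rno-miR-133b-3p) and 5 (rno-miR-133a-5p) reads in all 25 libraries together. The name rule of the list left out rno-miR-1b, which was tested and called higher by timepoint in both arms. Its log2 fold change was 1.73 (edgeR adjusted p = 0.00283) in saline and 1.00 (adjusted p = 0.0699) in morphine males. Both endothelial rows (the arms of miR-126a) were called higher in saline and in morphine males, against 22.4% and 11% of all miRNAs tested. Their shares of counts were 0.0442% to 0.0743%, 0.0559% to 0.0740%, 0.0825% to 0.342% and 0.107% to 0.166% in the same order of groups. The part of these cells in the members' levels was not tested.

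The spermatogenic list (miR-34b, miR-34c, miR-449 and X-linked testis miRNAs), which marks the labelled cells, was present in all libraries and took from 41.9% to 60.5% of counts in F0_SAL, 39.1% to 49.6% in F0_MOR, 30.1% to 47.8% in F0_ABS-SAL and 26.2% to 49.1% in F0_ABS-MOR. Of its 18 tested miRNAs 6 (33.3%, against 10.7% of all miRNAs tested) were called lower in F0_ABS-SAL and 2 (11.1%, against 10.1%) in F0_ABS-MOR, the latter near the share of all miRNAs. All 3 tested erythroid miRNAs (miR-451 and miR-144, while miR-486 was not analysed here) were called lower in F0_ABS-MOR and 0 in F0_ABS-SAL, against 10.1% and 10.7% of all miRNAs tested. The list took 0.0706% to 0.211%, 0.0959% to 0.217%, 0.0794% to 0.129% and 0.0389% to 0.156% of counts in the same order of groups. Of the 6 tested leukocyte miRNAs 1 (16.7%, against 10.1% of all miRNAs tested) was called lower in F0_ABS-MOR and 0 (against 10.7%) in F0_ABS-SAL. That list held between 0.0579% and 0.149% of counts over all groups. In the treatment comparisons no miRNA of any list was called.

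A few sperm miRNAs took a large part of all counts, and the timepoint fold changes were recomputed under 5 scalings of the libraries. With total counts in place of TMM the median log2 fold change of all miRNAs moved by 0.39 in saline and 0.18 in morphine males, and rno-miR-96-5p stood at 1.74 and 1.18 (1.35 and 1.01 above the median of all miRNAs). Scaled to rno-miR-186-5p the median was -0.21 and -0.037, and rno-miR-96-5p stood at 1.20 (edgeR adjusted p = 0.0101) and 0.96 (adjusted p = 0.04999). A change of scaling shifts the fold changes of all miRNAs nearly alike. Distances to the median could therefore hardly change, and they are given as a description, not as a test. Relative to the median of all miRNAs, rno-miR-96-5p was higher by 1.35 to 1.40 in saline and by 0.96 to 1.01 in morphine males under all 5 scalings. rno-miR-182 was 0.58 to 0.67 above the median in saline males and 0.30 to 0.37 in morphine males, and rno-miR-183-5p 0.39 to 0.49 and 0.37 to 0.43.

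**Figure D5:**
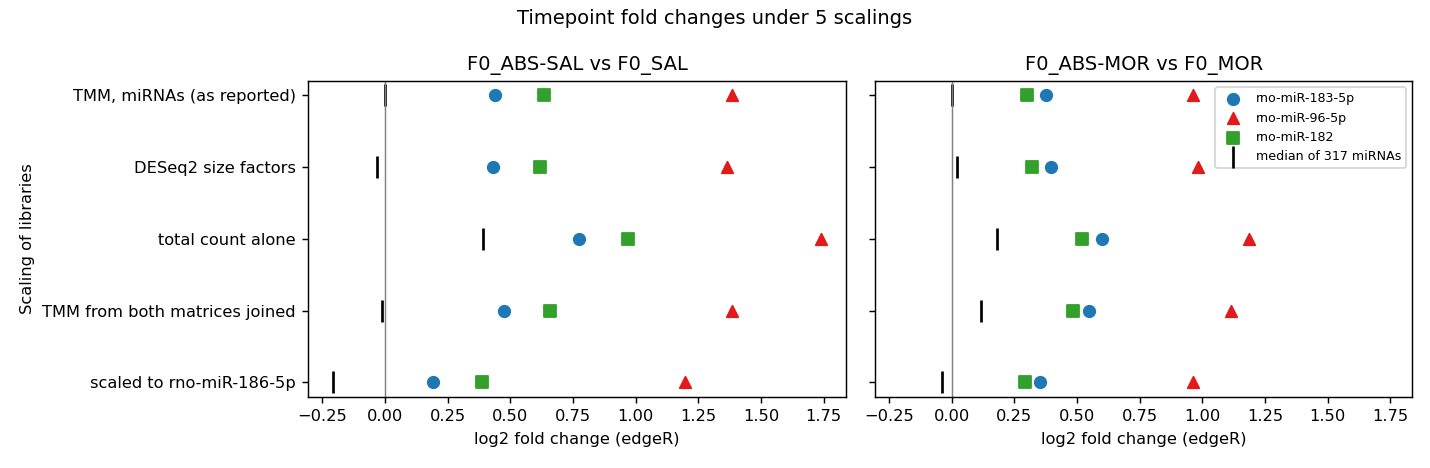
log2 fold change by timepoint of the 3 members (symbols) and the median of all 317 miRNAs tested (black bars) in saline males (left) and morphine males (right) under 5 scalings of the libraries (vertical axis), all from edgeR. The members and the median shift together, because a change of scaling moves all miRNAs nearly alike, and rno-miR-96-5p lies 0.96 to 1.40 above the median.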

How the data were processed

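smRNA was measured in 25 sperm libraries. Per the study's methods, libraries were made with the NEBNext small RNA kit, and forward reads were trimmed, aligned to Rnor_6.0 (rn6) and annotated to miRBase and then Ensembl ncRNAs with sRNAbench. The authors deposited raw read counts, 1 row for each mature miRNA or ncRNA and 1 column for each library, with no count of 1. DESeq2 stands in the submitters' processing notes. The authors' replicate numbers are not in the column names, so each library was given a group but no number. Every one of 300 library pairs differed beyond sampling noise.

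Counts were analysed in R 4.3.3 with edgeR 4.0.16 (TMM, filterByExpr with a minimum count of 10 over the 4 groups, 1 quasi-likelihood model of 4 groups, Benjamini-Hochberg adjustment over 317 miRNAs). The ncRNA counts served only for a joined scaling, and 388 ncRNA rows of biotype miRNA were not used. log2 CPM has a prior count of 2. DESeq2 1.42.0, limma 3.58.1 (voom with quality weights), other scalings, filters and thresholds, a covariate of total count and leaving out each library were alternatives. The scripts were tested on simulated data.

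Every row the name rule finds is named, together with the 5 miRNAs most like the summed cluster, miRNAs sharing its seed, rno-miR-186-5p and miRNAs of the lists. rno-miR-200a-5p and rno-miR-200c-3p were singled out after their values were seen. Members and lists were chosen with earlier results of these data known. Sequences are from RefSeq (GRCr8), a different assembly from that of the alignment, so they were matched by name. Depth limits rno-miR-96-5p most, and counting errors cover counting only.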

Additional observations from a re-analysis of the deposited data

Results flagged for a closer look

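In 28 groups of libraries checked (3 members, their sum and 3 ratios in 4 groups), 3 libraries stood apart from the rest of their group by Dixon's test, where about 1 in 20 groups, here 1.4, would by chance. In F0_MOR library G the log2 CPM of rno-miR-96-5p was 3.38, against 4.81 for the nearest library of its group, on 13 reads. Without it the difference of rno-miR-96-5p between F0_MOR and F0_SAL passed the exact permutation test (0.53, adjusted p = 0.0513). The other 2 members of that library were within the range of their group. In F0_ABS-SAL library R the log2 CPM of rno-miR-96-5p was 6.76, against 5.95 for the nearest other library, and this library also had the highest summed muscle marker share of all 25 (8.42% of counts) and the highest epithelial one of its group (2.06%). In F0_ABS-SAL library E the log2 ratio of rno-miR-182 to rno-miR-183-5p was 1.04, against 1.23 for the nearest other library. The cause was not tested for any of the 3.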

How the results depend on the processing

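rno-miR-96-5p kept its direction and its call in both timepoint comparisons under all 13 other settings and with any single library left out. Its log2 fold change ran from 1.20 to 1.74 in saline males (edgeR, DESeq2 or limma adjusted p 4.17e-05 to 0.0101) and from 0.96 to 1.18 in morphine males (adjusted p 0.00452 to 0.04999), and with single libraries left out from 1.11 to 1.45 and 0.81 to 1.08. The number of members called in saline males fell from 2 to 1 with scaling to rno-miR-186-5p and at an adjusted p under 0.05, was 1 to 2 with single libraries left out, and rose to 3 with total counts alone and with log2 total count as covariate, where rno-miR-183-5p was at 0.78 and 0.64 (edgeR adjusted p = 0.0386 and 0.0324). In morphine males it rose from 1 to 2 with log2 total count as covariate. For the mean over treatments it rose from 1 to 3 with total counts alone, with that covariate and without a fold threshold. In the fits across all miRNAs no setting called a member by treatment. In the exact tests the log2 CPM of rno-miR-96-5p between F0_MOR and F0_SAL passed without library G (0.53, exact permutation adjusted p = 0.0513), and the log2 ratio of rno-miR-182 to rno-miR-183-5p without library T (0.30, adjusted p = 0.0839 by the exact test). By timepoint, the log2 CPM of rno-miR-183-5p in saline males passed with total counts (0.86, adjusted p = 0.072 by the exact test).

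Directions turned only for differences near 0 that passed no test. Between F0_MOR and F0_SAL rno-miR-183-5p turned to -0.019 (DESeq2), -0.017 (DESeq2 size factors in edgeR), -0.013 (limma-voom), -0.14 (joined TMM), -0.10 (rno-miR-186-5p scaling), -0.045 (no filter) and -0.15 (covariate), and its log2 CPM difference to 0.19 with total counts. Between F0_ABS-MOR and F0_ABS-SAL the limma-voom and rno-miR-186-5p settings gave 0.036 and 0.050 for rno-miR-182, 0.052 and 0.064 for rno-miR-183-5p, and 0.061 and 0.059 for rno-miR-96-5p, which was 0.0051 with total counts. The interaction of rno-miR-183-5p turned to -0.065 (limma-voom), -0.073 (joined TMM) and -0.16 (rno-miR-186-5p), and its mean morphine effect to 0.019 (limma-voom) and 0.073 (total counts).

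With single libraries left out, rno-miR-183-5p ran from -0.13 to 0.12 between F0_MOR and F0_SAL (log2 CPM -0.093 to 0.13), from -0.11 to 0.18 in the interaction and from -0.10 to 0.033 in the mean morphine effect. Between F0_ABS-MOR and F0_ABS-SAL the fold changes ran from -0.15 to 0.075 (rno-miR-182), -0.14 to 0.062 (rno-miR-183-5p) and -0.12 to 0.18 (rno-miR-96-5p), and log2 CPM differences from -0.19 to 0.069, -0.17 to 0.078 and -0.13 to 0.16. Ratios ran from -0.085 to 0.33 (rno-miR-96-5p to rno-miR-182, F0_MOR against F0_SAL), -0.094 to 0.033 (rno-miR-182 to rno-miR-183-5p) and -0.037 to 0.12 (rno-miR-96-5p to rno-miR-183-5p, both F0_ABS-MOR against F0_ABS-SAL). The exact tests passed 3 of 12 levels (2 to 4 without single libraries) and 2 of 12 ratios (2 to 3).

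Over all miRNAs, calls in saline males were 71 higher and 34 lower, against 110 and 1 with total counts and 33 and 77 with rno-miR-186-5p scaling. In morphine males they were 35 and 32, against 57 and 14 (total counts), 56 and 17 (joined TMM), 22 and 31 (rno-miR-186-5p) and 21 and 22 (adjusted p under 0.05). For the mean over treatments they were 72 and 38, against 111 and 7 (total counts), 51 and 59 (rno-miR-186-5p), 45 and 19 (at least 10 counts in every library) and 100 and 78 (no fold threshold).

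No paired analysis was possible because the matrix columns carry no replicate numbers.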
